A study of Mus musculus with 19 samples.

Results

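Esrrb, Nr5a2, Nr0b1, Tbx3, Tfcp2l1 and Gbx2 are transcription factors of the naive pluripotency network outside the Klf family. These 6 genes were taken by name from 54119 genes, each gene being the sum of its transcripts in a table of transcripts per 1000000 (TPM), and all 6 were among the 14972 genes tested (those that reached 1 TPM in 3 or more of the 19 libraries). Gbx2 entered the test only through XY stem cells, where all 3 libraries were above 1 TPM and no library of another group was, so it had to differ between groups. RNA was sequenced from mouse embryonic stem cells (mESC) and from epiblast-like cells (EpiLC) made from them, to ask whether TET3, an enzyme that oxidises 5-methylcytosine, is needed for that step. The mESC were held in LIF with inhibitors of the kinases GSK3 and MEK, and the EpiLC were grown for 5 days in FGF5 and Activin A with LIF withdrawn. The XX cells were wild-type LF2 cells (3 mESC and 3 EpiLC libraries) and the XY cells wild-type E14 cells (3 and 3). The Tet3-/- cells were LF2 cells with a Tet3-/- genotype, titled mutant #1 to #4 in mESC and #1, #3 and #4 in EpiLC. Each genotype thus comes from 1 parental line, sex and line cannot be told apart, and the labels neither describe the Tet3 allele nor say what a mutant number marks. They do not say that libraries came from separate cultures either, so p-values measure only the spread between these libraries.

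Naive stem cells sustain themselves by a set of factors that activate each other and that LIF and GSK3 inhibition keep on. LIF acts through STAT3, which activates Tfcp2l1 and Gbx2, while GSK3 inhibition stabilises beta-catenin and relieves repression of Esrrb by TCF7L1. When LIF and the inhibitors are removed and FGF and Activin signals are given, the naive factors are shut down and a formative programme with Fgf5, Otx2 and Dnmt3b comes on.

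Facts of the libraries bear on every value below. Depth is unknown, since TPM keeps none, and between 11128 and 13811 genes reached 1 TPM per library. The non-coding RNA Rn7s1 took from 23.5% to 43.7% of TPM, with 38.9% to 39.5% in XX EpiLC and 23.5% to 27.4% in XY EpiLC, so values are also given after median-of-ratios scaling ("scaled"), which set the median of all genes to within 0.05 of 0 in each comparison. Unscaled, that median was -0.59 for XX against XY in EpiLC and 0.54 for the XY transition. Tet3 itself had 0.761 ± 0.269 TPM (SD, n = 3) in XX mESC and 0.661 ± 0.174 TPM (SD, n = 4) in Tet3-/- mESC, and 1.65 ± 0.386 against 1.04 ± 0.363 TPM (SD, n = 3 each) in EpiLC, with limma adjusted p of 0.885 and 0.525. Scaled, the EpiLC libraries did not overlap, at 1.39, 1.91 and 1.86 in XX and 1.28, 1.09 and 1.02 in Tet3-/-, and the difference of -0.35 was not called (limma adjusted p 0.0992). The stem cell markers Pou5f1, Sox2, Nanog and Zfp42 were present in all libraries. The 4 EpiLC markers Fgf5, Otx2, Pou3f1 and Dnmt3b summed to 6.86 to 29.3 TPM in mESC, 38.8 to 46.2 in XX EpiLC and 250 to 317 in XY EpiLC. Mutant #3 stood apart among Tet3-/- EpiLC: its EpiLC markers summed to 146 TPM against 42.4 and 41.3 in #1 and #4, and its mesoderm markers (T, Mixl1, Gsc, Mesp1) to 113 TPM against 1.2 and 1.01. Scaling divided the TPM of mutant #3 by 1.3, and that of #1 and #4 by 0.781 and 0.678. Its unscaled values are thus raised relative to those of #1 and #4. Results that rest on mutant #3 are given with and without it.

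Esrrb, an orphan nuclear receptor that binds DNA without a known natural ligand, was the highest of the 6 genes in each mESC group. It lies on chromosome 12 (86361117 to 86521628, plus strand, GRCm38) and has an upstream and a downstream start. The 150 bases before both starts are shown, with CG dinucleotides, the sites of DNA methylation, in capitals (RefSeq, GRCm38.p6, plus strand). A further transcript, Esrrb-206, begins at neither of these starts, and the sequence before it is not shown.
Esrrb upstream start, chr12:86360967-86361116: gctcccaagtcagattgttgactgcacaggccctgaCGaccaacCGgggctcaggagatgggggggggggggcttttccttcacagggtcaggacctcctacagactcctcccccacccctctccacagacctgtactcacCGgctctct
Esrrb downstream start, chr12:86421494-86421643: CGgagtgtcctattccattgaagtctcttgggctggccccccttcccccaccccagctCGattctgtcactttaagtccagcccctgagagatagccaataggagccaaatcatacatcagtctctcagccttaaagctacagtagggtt
Transcript Esrrb-203, which begins at the downstream start, took 66.4% ± 6.25 (SD, n = 3) of Esrrb TPM in XX mESC, 71.2% ± 1.02 (SD, n = 3) in XY mESC and 71.7% ± 2.39 (SD, n = 4) in Tet3-/- mESC. Esrrb-206, which begins further inside the gene at 86470117, took 25.2%, 20% and 19.7%. Esrrb-204, from the upstream start, took 4.8%, 4.59% and 4.69%. Most Esrrb TPM was thus assigned to transcripts that begin downstream, in all 3 genotypes. Such a split of reads between transcripts of 1 gene is an estimate.

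Esrrb in mESC was at 73.9, 109 and 110 TPM in XX, at 73.6, 47.6 and 108 in XY, and at 88.1, 109, 118 and 105 in Tet3-/-. These ranges overlapped. Its EpiLC levels were 11.2, 13.2 and 13.4 TPM in XX, 0.808, 0.793 and 0.54 in XY, and 1.57, 7.03 and 2.52 in Tet3-/- mutants #1, #3 and #4. The 3 EpiLC groups did not overlap, with XX highest, Tet3-/- between and XY lowest. In bulk RNA, fewer cells with a transcript and less transcript per cell cannot be told apart. Esrrb fell in every transition, with log2 fold changes on the log2(TPM + 1) scale of -2.84 (SE 0.34) in XX, -5.42 (SE 0.34) in XY and -4.66 (SE 0.32) in Tet3-/- (limma adjusted p 2.75e-06, 4.78e-10 and 1.75e-09). As a share of the mESC mean of the same genotype, 12.9% ± 1.29 was left in XX EpiLC, 0.935% ± 0.197 in XY and 3.53% ± 2.78 in Tet3-/- (SD, n = 3 each). Without mutant #3 the Tet3-/- mean was 1.95%.

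Nr5a2, also called liver receptor homolog 1, is an orphan nuclear receptor that binds the Pou5f1 gene and can take the place of Pou5f1 in reprogramming. It lies on chromosome 1 (136842571 to 136960448, minus strand). It too has alternative starts, and the sequences before 2 of them are shown since the transcripts that begin there held nearly equal shares (RefSeq, GRCm38.p6, minus strand, CG in capitals).
Nr5a2 upstream start, chr1:136960449-136960598: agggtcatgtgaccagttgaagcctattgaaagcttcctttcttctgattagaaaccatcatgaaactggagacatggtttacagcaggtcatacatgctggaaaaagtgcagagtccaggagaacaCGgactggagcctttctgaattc
Nr5a2 downstream start, chr1:136953631-136953780: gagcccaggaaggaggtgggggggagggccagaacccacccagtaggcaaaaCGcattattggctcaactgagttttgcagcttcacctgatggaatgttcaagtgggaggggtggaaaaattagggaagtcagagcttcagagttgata
Nr5a2-201, from the upstream start, took 38.1% ± 7 (SD, n = 3) of Nr5a2 TPM in XX mESC, 44.7% ± 2.03 (SD, n = 3) in XY and 44.5% ± 3.87 (SD, n = 4) in Tet3-/-. Nr5a2-205, from the downstream start, took 47.9% ± 7.21, 42.3% ± 4.51 and 42.7% ± 3.63 in the same groups.

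**Figure D1:**
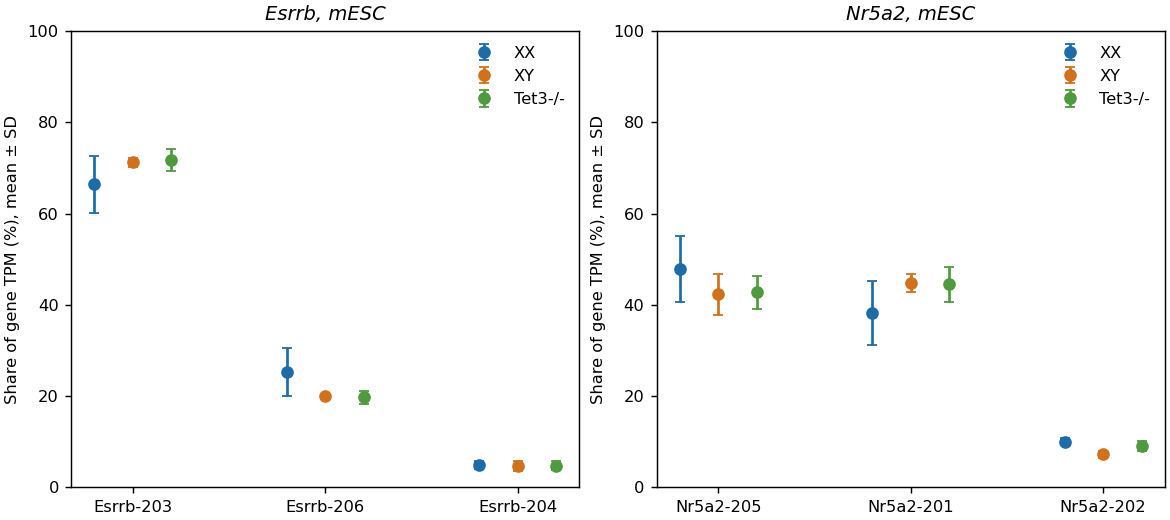
Share of gene TPM held by the 3 most abundant transcripts of Esrrb and Nr5a2 in mESC; points are group means and bars the SD over 3 XX, 3 XY and 4 Tet3-/- libraries. Esrrb-203 held 66.4% to 71.7%, while Nr5a2-205 and Nr5a2-201 each held 38.1% to 47.9%.

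Nr5a2 was at 11.3, 21.1 and 17.8 TPM in XX mESC, at 18.7, 12 and 31.5 in XY mESC and at 21.1, 22.4, 25.6 and 26.8 in Tet3-/- mESC. The EpiLC libraries held 1.09, 1.5 and 1.24 TPM in XX, 0.166, 0.0545 and 0.0438 in XY, and 0.16, 0.917 and 0.191 in Tet3-/-. XX EpiLC lay above both other EpiLC groups, which overlapped each other through Tet3-/- mutant #1. Nr5a2 fell in all 3 genotypes, with log2 fold changes of -2.92 (SE 0.29) in XX, -4.22 (SE 0.29) in XY and -4.17 (SE 0.27) in Tet3-/- on the log2(TPM + 1) scale (limma adjusted p 2.45e-07, 1.3e-09 and 8.39e-10). Of the mESC mean, 7.62% ± 1.24 was left in XX, 0.425% ± 0.327 in XY and 1.77% ± 1.79 in Tet3-/- (SD, n = 3 each). Mutant #3 kept 3.83%, and the mean of #1 and #4 was 0.733%.

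Nr0b1, known as DAX1, is a nuclear receptor that lacks the usual DNA-binding domain and acts as a corepressor of other receptors, Nr5a family members among them. It is the X-linked gene of the 6 (chromosome X, 86191764 to 86195947, plus strand), with 1 transcript in the table. It was at 11.4, 12.2 and 16.1 TPM in XX mESC, at 22.3, 10.5 and 27.1 in XY mESC, and at 11.4, 10.8, 11.3 and 9.56 in Tet3-/- mESC. XX and XY mESC overlapped. Each Tet3-/- mESC library was below each XX one, the closest pair being 11.4 TPM at this rounding, a separation that 0.982% of all tested genes showed in this direction, but the difference of -0.27 was not called (limma adjusted p 0.789). Nr0b1 in EpiLC was at 1.57, 1.52 and 1.39 TPM in XX, at 0.168, 1.2 and 0.245 in Tet3-/-, and at 0.0132, 0 and 0.0939 in XY. The 3 EpiLC groups did not overlap. Nr0b1 fell in every transition, with log2 fold changes of -2.50 (SE 0.28) in XX, -4.24 (SE 0.28) in XY and -2.99 (SE 0.26) in Tet3-/- (limma adjusted p 1.14e-06, 8.25e-10 and 3.77e-08). Of the mESC mean, 1.56%, 11.2% and 2.27% was left in mutants #1, #3 and #4, against 10.5% to 11.9% in XX EpiLC. The mean of the mutants was 5.01% ± 5.37 (SD, n = 3), and 1.92% without #3.

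Tbx3, a T-box factor that LIF and PI3K signalling maintain in stem cells and that also acts in limb and endoderm development, lies on chromosome 5 (119670669 to 119684724, plus strand). It was at 16.9, 19.2 and 26.3 TPM in XX mESC, at 14.8, 10.1 and 25.9 in XY mESC, and at 19.9, 17.6, 18.4 and 28.7 in Tet3-/- mESC, with no separation of the groups. Its level in EpiLC was 1.45, 1.75 and 1.6 TPM in XX, 0.208, 0.115 and 0.235 in XY, and 0.33, 1.48 and 0.479 in Tet3-/-. Mutant #3, at 1.48 TPM, lay within the XX range, and the other 2 mutants lay between XX and XY. Scaled, mutant #3 was at 1.14, below the XX EpiLC range of 1.57 to 1.81. Tbx3 fell in XX (log2 fold change -3.04, SE 0.29), XY (-3.82, SE 0.29) and Tet3-/- (-3.68, SE 0.27), with limma adjusted p of 1.84e-07, 5.71e-09 and 5.01e-09. The 2 coding transcripts Tbx3-201 and Tbx3-203 took 50.7% and 35.9% of its TPM in XX mESC, 55.2% and 32% in XY mESC, and 51.4% and 37.9% in Tet3-/- mESC.

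Tfcp2l1, a CP2-family factor that STAT3 activates directly and that is enough to sustain self-renewal in its place, lies on chromosome 1 (118627945 to 118685168, plus strand). Its mESC libraries spread widely within each group: 34.7, 87.5 and 60.9 TPM in XX, 55.1, 28.9 and 96.7 in XY, and 40.6, 72.5, 81.3 and 60.6 in Tet3-/-. Tfcp2l1 in EpiLC was at 8.77, 10.8 and 10.6 TPM in XX, at 1.25, 1.2 and 1.28 in XY, and at 2.74, 5.14 and 2.17 in Tet3-/-. As for Esrrb, the 3 EpiLC groups did not overlap, in the order XX, Tet3-/-, XY. It fell in every transition (log2 fold change -2.40, SE 0.39 in XX; -4.61, SE 0.39 in XY; -3.91, SE 0.36 in Tet3-/-), with limma adjusted p of 8.18e-05, 1.85e-08 and 8.2e-08. Of the mESC mean, 16.5% ± 1.82 was left in XX EpiLC, the highest share of the 5 genes that fell there (SD, n = 3). In XY EpiLC 2.07% ± 0.0672 was left, and in Tet3-/- EpiLC 5.26% ± 2.48 (SD, n = 3 each), or 3.85% without mutant #3.

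Gbx2, a homeobox factor that LIF and STAT3 induce in stem cells and that opposes Otx2 at the border of midbrain and hindbrain, did not follow the other 5. It lies on chromosome 1 (89927956 to 89931179, minus strand). Its start is shown because its window was the most CpG-rich of the members (RefSeq, GRCm38.p6, minus strand, CG in capitals).
Gbx2 start, chr1:89931177-89931326: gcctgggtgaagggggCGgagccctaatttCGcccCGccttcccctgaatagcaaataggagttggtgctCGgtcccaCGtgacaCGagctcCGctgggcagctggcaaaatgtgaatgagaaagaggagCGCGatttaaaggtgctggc
It was at 2.94, 3.89 and 4.07 TPM in XY mESC and at no more than 0.681 TPM in each of the other 16 libraries. In XX mESC it was at 0.0485, 0.178 and 0.00816 TPM and in Tet3-/- mESC at 0.0387, 0.53, 0.359 and 0.0376. In EpiLC it was at 0.255, 0.468 and 0.518 TPM in XX, at 0.0389, 0.114 and 0.0274 in XY, and at 0.0272, 0.681 and 0.0391 in Tet3-/-. XY mESC thus stood above every other group, and neighbours in the order of the other 5 groups overlapped. Its log2 fold change in the XY transition was -2.12 (SE 0.19), given as a description with no test, since XY mESC is the group through which it was kept for testing. In the XX transition its log2 fold change was 0.39 (limma adjusted p 0.145, but 0.0257 when limma was fitted to these 2 groups alone) and in Tet3-/- -0.01 (limma adjusted p 0.979). In XY mESC 64.5% ± 11.4 of its TPM was assigned to Gbx2-202, a transcript with a retained intron, and the coding transcript Gbx2-201 had 1.26 ± 0.342 TPM (SD, n = 3 each).

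**Figure D2:**
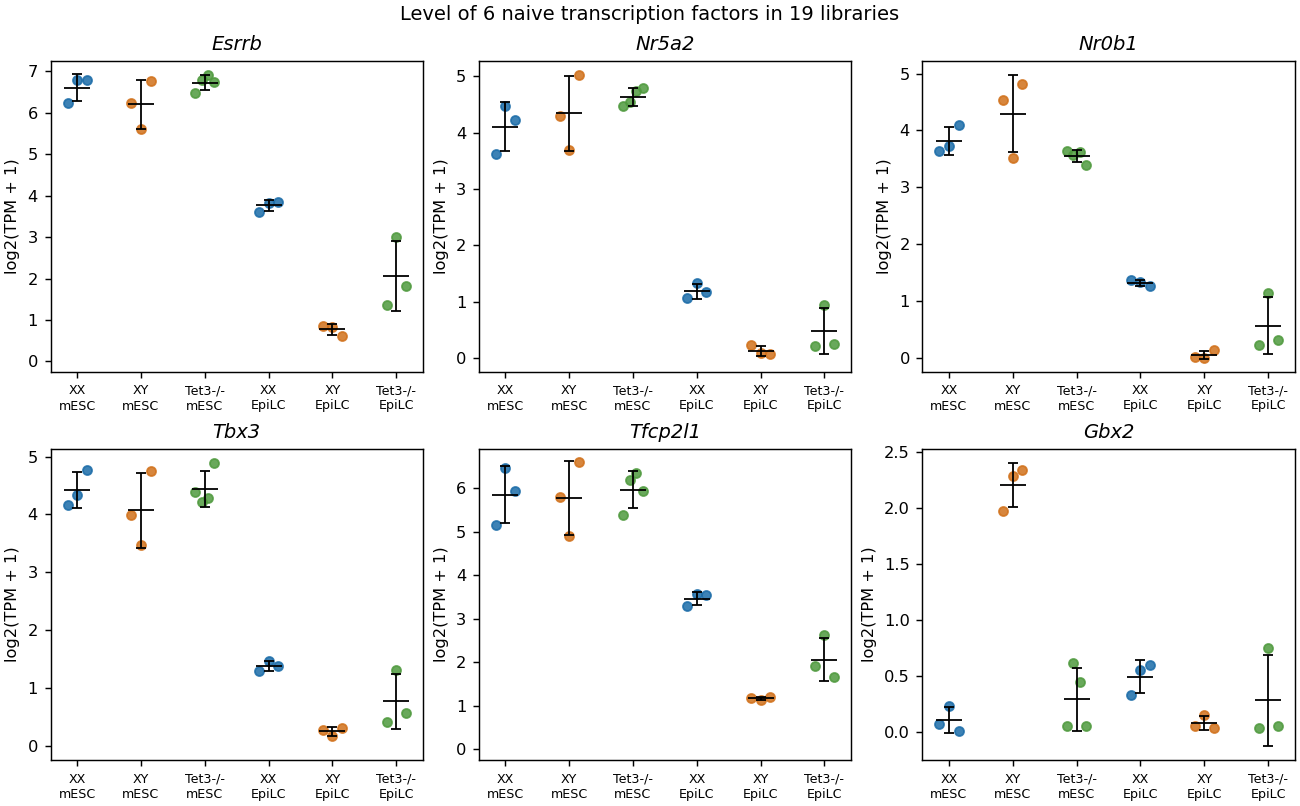
Level of each gene as log2(TPM + 1) in all 19 libraries (points), by genotype and state, with the group mean and SD (black). Esrrb, Nr5a2, Nr0b1, Tbx3 and Tfcp2l1 were low in EpiLC and lowest in XY, while Gbx2 was above 1 TPM only in the 3 XY mESC libraries.

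RefSeq held promoter windows, from 250 bases before to 50 after a start, for 5 of the 6 genes, 7 windows in all. The other gene is Tbx3. CG dinucleotides numbered 27 in the Gbx2 window, 21 in Tfcp2l1, 14 in Nr0b1, 7 in each of the Esrrb windows and in the downstream Nr5a2 window, and 2 in the upstream Nr5a2 window, where the median over 32851 windows of the genome was 7. At least as many as Gbx2 were held by 15.5% of all windows, and at least as many as the upstream Nr5a2 window by 85.9%. Both CpG-rich and CpG-poor starts therefore occurred among the genes that fell. The ERR and NR5A half-site AAGGTCA, on both strands, was in 4.72% of all windows and in 0 of these 7. The longer TCAAGGTCA (0.423% of all windows; each match also holds AAGGTCA), the T-box core GGTGTGA (3.98%), the paired CCAG motif of Tfcp2l1 (3.44%) and the STAT motif TTCCNGGAA (1.15%) were likewise in 0 of the 7.

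Esrrb, Nr5a2, Nr0b1, Tbx3 and Tfcp2l1 were called lower in EpiLC in each of the XX, XY and Tet3-/- transitions, where 12.2%, 9.36% and 21.5% of all tested genes were called lower by limma (adjusted p under 0.05) and, scaled, 27%, 26.4% and 27.9%. The median log2 fold changes of these 5 were -2.84, -4.24 and -3.91 in that order, against 0.14, 0.54 and -0.13 over all tested genes.

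**Figure D3:**
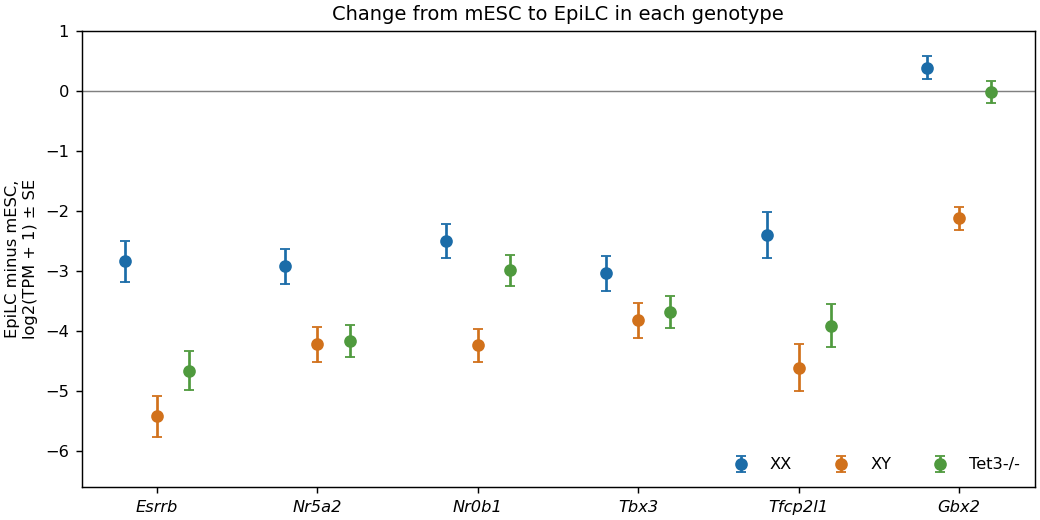
Log2 fold change from mESC to EpiLC with its SE (limma on log2(TPM + 1)) for each gene and genotype. For 5 genes the XX change, from -3.04 to -2.40, was the smallest of the 3 genotypes, and Gbx2 was at -2.12 in XY.

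The comparison of Tet3-/- with XX tests whether the levels of these factors differ between the mutant and wild-type LF2 libraries in either state. Since the labels do not say what a mutant number marks, the mutation cannot be told apart from other differences between these cells. In mESC 0 of the 6 genes were called by limma, where 0.601% of all tested genes were called (scaled, 0 were called, against 3.27% of all tested genes). An unadjusted p under 0.05 (limma) was reached by 0 of the 6 and by 1359 of the 14972 tested genes. Scaled, it was reached by 1 of the 6 and by 2264 of all tested genes. The log2 differences ran from -0.27 (Nr0b1) to 0.53 (Nr5a2), with a median of 0.11 against 0.19 over all genes. Those of Esrrb (0.12), Tfcp2l1 (0.11) and Tbx3 (0.02) turned to -0.18, -0.18 and -0.26 when scaled, so they had no settled direction.

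In EpiLC Esrrb was lower in Tet3-/- than in XX by 1.70 on the log2(TPM + 1) scale (SE 0.34, limma adjusted p 0.0168), with all 3 mutants below all 3 XX libraries. It was the 1 of the 6 genes called, where 0.955% of all tested genes were called lower. Tfcp2l1, at -1.40, did not pass (limma adjusted p 0.106), nor did Nr0b1 (-0.76, limma adjusted p 0.295), Nr5a2 (-0.71, limma adjusted p 0.371), Tbx3 (-0.62, limma adjusted p 0.514) or Gbx2 (-0.21, limma adjusted p 0.937). All 6 values were negative, and their median was -0.74 against -0.07 over all genes. An unadjusted p under 0.05 (limma) was reached by 5 of the 6 and by 1439 of the 14972 tested genes. With a pseudocount of 0.1 Esrrb was again the 1 gene called (-2.01, limma adjusted p 0.0158), with Nr0b1 at -1.69 and Nr5a2 at -1.68. For 4 genes, Esrrb, Tfcp2l1, Nr5a2 and Nr0b1, the ranges did not overlap with the mutants lower, which held for 12.4% of all tested genes.

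Scaling left the sizes nearly as they were and narrowed the spread, so that 5 of the 6 were called, where 3.23% of all tested genes were called lower on that scale. Scaled differences were -1.66 for Esrrb (limma adjusted p 0.000128), -1.34 for Tfcp2l1 (limma adjusted p 0.00281), -0.76 for Nr5a2 (limma adjusted p 0.00372), -0.81 for Nr0b1 (limma adjusted p 0.0325) and -0.63 for Tbx3 (limma adjusted p 0.0484). Without mutant #3, whose EpiLC and mesoderm markers were high, the unscaled difference was -2.17 for Esrrb (limma adjusted p 0.000641) and -1.68 for Tfcp2l1 (limma adjusted p 0.0439), and 2 genes were called. Mutant #3 held the highest level of each of the 6 genes among the Tet3-/- EpiLC libraries, on TPM and scaled. For Tfcp2l1 the scaled levels were close, at 3.5, 3.96 and 3.2 in #1, #3 and #4. The part of the marker profile of mutant #3 in these values was not tested. Without XX EpiLC 2 or 3, or mutant #1 or #4, the Esrrb call was lost (-1.67 to -1.35, limma adjusted p 0.0727 to 0.104), and it was also lost when limma was fitted to these 2 groups alone (limma adjusted p 0.248).

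**Figure D4:**
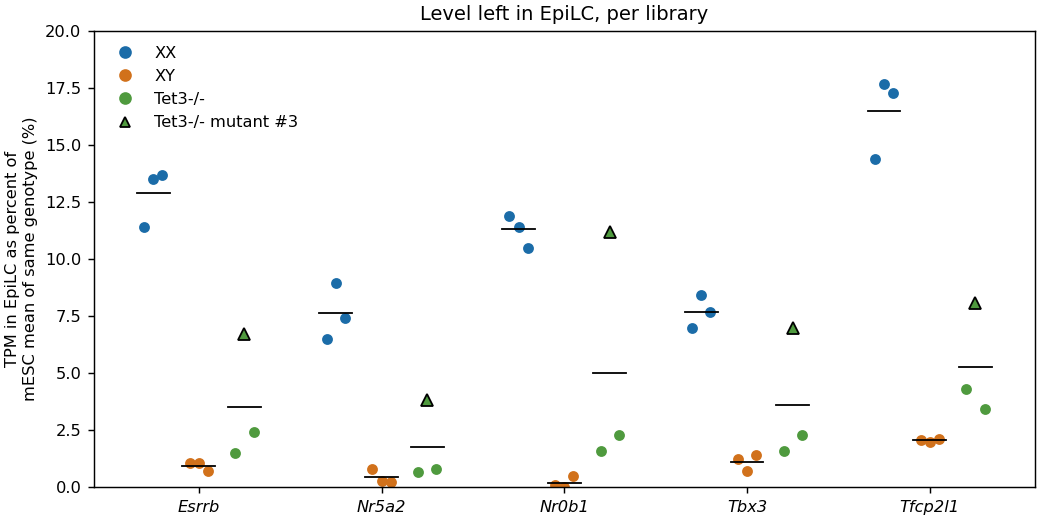
TPM left in each EpiLC library as a percent of the mESC mean of the same genotype, for the 5 genes expressed in all mESC groups; black lines are means over 3 libraries and triangles mark Tet3-/- mutant #3. XX libraries kept 6.5% to 17.7%, XY libraries at most 2.12%, mutants #1 and #4 0.669% to 4.29%, and mutant #3 3.83% to 11.2%, where it reached the XX libraries for Tbx3 (6.98% against 6.98% to 8.43%) and Nr0b1 (11.2% against 10.5% to 11.9%). Scaled, mutant #3 stayed below the XX libraries for Tbx3 (5.3% against 5.98% to 6.9%) and reached them for Nr0b1 (8.34% against 8.1% to 10.7%).

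The transition itself was compared between Tet3-/- and XX by an interaction term. On TPM 0 of the 6 genes passed (limma), where 0.174% of all tested genes were called lower. An unadjusted p under 0.05 (limma) was reached by 3 of the 6 and by 1152 of the 14972 tested genes. The 3 were Esrrb (-1.82, limma adjusted p 0.158), Tfcp2l1 (-1.51, limma adjusted p 0.425) and Nr5a2 (-1.24, limma adjusted p 0.364). With a pseudocount of 0.1 in place of 1 these were -2.12, -1.76 and -2.24 (limma adjusted p 0.178, 0.352 and 0.224). Scaled, Esrrb (-1.48, limma adjusted p 0.0167) and Nr5a2 (-1.01, limma adjusted p 0.0168) fell further in Tet3-/- than in XX, where 0.394% of all tested genes were called lower. Without mutant #3, Esrrb passed on TPM as well (-2.29, limma adjusted p 0.00807).

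XX and XY cells, which differ in sex and in line, were compared within each state. In mESC 0 of the 5 genes other than Gbx2 were called by limma, where 6.43% of all tested genes were called higher and 7.73% lower. An unadjusted p under 0.05 (limma) was reached by 0 of the 5 and by 4080 of the 14972 tested genes. Gbx2 was at -2.10 (SE 0.19), which the filter had fixed. The other 5 ran from -0.47 (Nr0b1, limma adjusted p 0.283) to 0.41 (Esrrb, limma adjusted p 0.46), and their ranges overlapped. Scaled, Esrrb (0.69, limma adjusted p 0.0144) and Tbx3 (0.63, limma adjusted p 0.0117) were higher in XX, where 18.2% of all tested genes were called higher. Without XY mESC 2, the XY library with the least Nr0b1, Nr0b1 was lower in XX (-0.86, limma adjusted p 0.02).

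In EpiLC 5 of the 6 genes were higher in XX than in XY, where 5.23% of all tested genes were called higher by limma. The log2 differences were 2.99 for Esrrb (SE 0.34, limma adjusted p 3.16e-06), 2.29 for Tfcp2l1 (SE 0.39, limma adjusted p 0.000218), 1.27 for Nr0b1 (SE 0.28, limma adjusted p 0.00195), 1.13 for Tbx3 (SE 0.29, limma adjusted p 0.00574) and 1.06 for Nr5a2 (SE 0.29, limma adjusted p 0.00767). Gbx2 was at 0.41 (limma adjusted p 0.0853), and it passed with a pseudocount of 0.1 (1.68, limma adjusted p 0.0495), rescaled over nuclear protein-coding genes (1.06, limma adjusted p 0.0393) and in a fit of these 2 groups alone (limma adjusted p 0.00443). The same pseudocount moved Nr0b1 to 3.61, Nr5a2 to 2.92 and Tbx3 to 2.59. For all 6 genes each XX library was above each XY library, which held for 9.91% of all tested genes. The median of the 6 was 1.20 against -0.59 over all genes. Scaled, the same 5 genes were called and the differences were larger, from 1.14 (Nr5a2) to 3.29 (Esrrb), where 17.9% of all tested genes were called higher. The EpiLC markers, at 38.8 to 46.2 TPM summed in XX and 250 to 317 in XY, moved the other way. So did the summed stem cell markers, at 276 to 301 TPM in XX and 476 to 490 in XY. Within that set Pou5f1 and Nanog were lower in XX (-0.89 and -0.96), and Sox2 and Zfp42 higher (2.01 and 1.21). Summed mesoderm markers were at 0.761 to 1.11 TPM in XX and 18.3 to 28.2 in XY, trophoblast markers at 12.5 to 15.3 and 3.63 to 3.9, primitive endoderm markers at 3.4 to 4.56 and 7.63 to 9.28, fibroblast markers at 2.9 to 4.51 and 8.84 to 9.36, and neural markers at 0.144 to 0.309 and 1.17 to 1.31. The part of these markers in the result was not tested. The comparison shares its XX EpiLC libraries with that of Tet3-/- and XX.

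**Figure D5:**
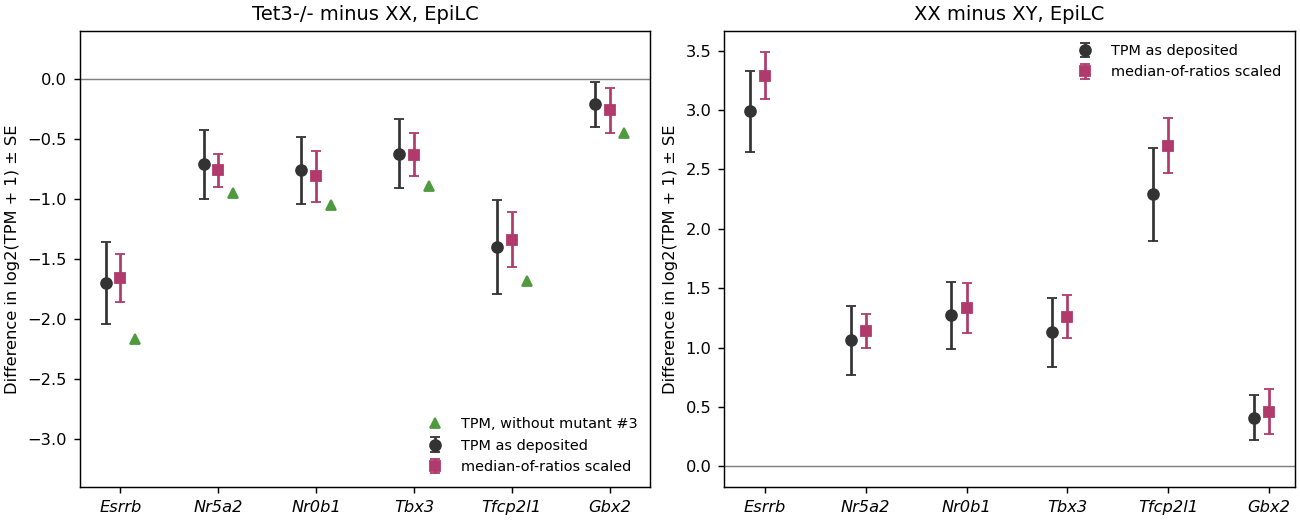
Differences in EpiLC for Tet3-/- minus XX (left) and XX minus XY (right), on TPM (circles) and scaled TPM (squares) with the SE, and on TPM without Tet3-/- mutant #3 (triangles, no SE). Esrrb was at -1.70 on the left and 2.99 on the right, and Tfcp2l1 at -1.40 and 2.29.

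An interaction test of the transition in XX against that in XY called 4 of the 5 genes other than Gbx2, each of which fell less in XX, where 3.61% of all tested genes were called in this direction. The log2 differences were 2.58 for Esrrb (limma adjusted p 0.0011), 2.21 for Tfcp2l1 (limma adjusted p 0.00925), 1.74 for Nr0b1 (limma adjusted p 0.00492) and 1.30 for Nr5a2 (limma adjusted p 0.0354). Tbx3 did not pass at the pseudocount of 1 (0.78, limma adjusted p 0.223) and passed at 0.1 (2.22, limma adjusted p 0.0137) and when rescaled over nuclear protein-coding genes (1.52, limma adjusted p 0.0238). The pseudocount of 0.1 also moved Nr0b1 to 4.11 and Nr5a2 to 3.16. Gbx2 was at 2.51, given with no test for the reason above. The Nr5a2 call was lost when any of 9 libraries was left out (0.96 to 1.36, limma adjusted p 0.0551 to 0.0838), these being XX mESC 1 and 3, XY mESC 1 and 3, XX EpiLC 1, 2 and 3, and XY EpiLC 2 and 3. Scaled, the same 4 genes were called, where 11% of all tested genes were.

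Of 11 partner factors of the naive network (Pou5f1, Sox2, Nanog, Sall4, Prdm14, Klf2, Klf4, Klf5, Zfp42, Dppa3 and Tcl1), 8 fell in each transition and 0 rose, except that Sall4 rose in XY (1.64, limma adjusted p 0.00811). Of all tested genes 19.2% were called higher and 12.2% lower in XX, 41.1% and 9.36% in XY, and 13.6% and 21.5% in Tet3-/-. Scaled, 9, 10 and 8 of the 11 fell, against 27%, 26.4% and 27.9% of all tested genes. Prdm14, which fell in each, reached 1 TPM only in mESC libraries (at most 0.395 TPM in EpiLC), so the filter favoured its fall. The XX, XY and Tet3-/- medians of the 11 log2 fold changes were -2.11, -4.30 and -3.54. Sox2, a core pluripotency factor, fell in each (-2.11, -4.43 and -3.73). Its EpiLC levels were 14.6, 15.5 and 17.3 TPM in XX, 3.27, 2.87 and 3.4 in XY, and 5.31, 9.93 and 5.81 in Tet3-/-, the same order of groups as for Esrrb. Pou5f1, the other core factor, was not called in any transition on TPM (-0.35, -0.06 and -0.57), but was called lower in XX and XY when scaled (-0.61 and -0.79). In EpiLC 2 of the 11 were lower in Tet3-/- than in XX, Sox2 (-1.11, limma adjusted p 0.0285) and Tcl1, an activator of AKT (-1.88, limma adjusted p 0.0394), where 0.955% of all tested genes were called lower, and the median of the 11 was -0.82. Scaled, 6 of the 11 were lower, against 3.23% of all tested genes. Against XY, 6 of the 11 were higher in XX EpiLC, against 5.23% of all tested genes, and 3 lower, the latter being Pou5f1 (-0.89), Nanog (-0.96) and Sall4 (-2.38), where 42% of all tested genes were called lower. Scaled, 7 were higher and 1 was lower, against 17.9% and 15.1% of all tested genes, with Pou5f1 at -0.13 and Nanog at -0.22, neither called.

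Of 17 genes of the signals that feed these factors, 5 rose and 3 fell in XX, 8 rose and 5 fell in XY, and 5 rose and 4 fell in Tet3-/-, where 19.2%, 41.1% and 13.6% of all tested genes were called higher and 12.2%, 9.36% and 21.5% lower. Scaled, 7 rose and 4 fell in XX, 6 and 6 in XY, and 7 and 4 in Tet3-/-, where 23%, 24.5% and 23.7% of all tested genes were called higher and 27%, 26.4% and 27.9% lower. Spry4, among those that rose in XX and Tet3-/-, reached 1 TPM only in EpiLC libraries (at most 0.377 TPM in mESC), so the filter favoured its rise. Lifr, the LIF receptor, fell in each transition (-1.32, -1.79 and -2.06 in XX, XY and Tet3-/-). Stat3 was not called in any on TPM (0.46, -0.25 and -0.33), and was called lower in XY when scaled (-0.83). Dusp6, a phosphatase that ERK induces, rose in each (3.89, 3.76 and 4.45), and Fgf4 fell in each (-1.85, -2.47 and -3.12). Fgf4, the FGF that stem cells secrete, was the 1 of the 17 called between Tet3-/- and XX EpiLC (-1.21, limma adjusted p 0.0365). Of all tested genes 0.955% were called lower there and 0.12% higher. Scaled, Fgf4 was again lower (-1.13, limma adjusted p 0.000214) and Dusp6 was higher (0.96, limma adjusted p 0.0306), against 3.23% and 2.2% of all tested genes. Dusp6 varied widely between the Tet3-/- EpiLC libraries (37.5 ± 30.7 TPM, SD, n = 3). Between XX and XY mESC 2 of the 17 were higher in XX, against 6.43% of all tested genes, and 3 were lower, against 7.73%. Those higher were Socs3, an inhibitor of LIF signalling that STAT3 induces (1.26, limma adjusted p 0.00845), and Fgfr2, an FGF receptor (1.46, limma adjusted p 4.76e-05). Those lower were Axin2 (-2.85, limma adjusted p 0.00021) and Lef1 (-2.17, limma adjusted p 0.000554), genes that beta-catenin activates or works through, and Dusp6 (-1.29, limma adjusted p 0.0248). Tcf7l1, the repressor of Esrrb, was at 0.08 there (limma adjusted p 0.911).

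Of 39 relatives and cofactors of the 6 genes, 25 were tested. None of the 7 nuclear receptors tested fell in any transition by limma, on TPM or scaled values, and 4 rose in XX, 6 in XY and 3 in Tet3-/- (4, 3 and 6 when scaled), with medians of 0.62, 0.91 and 0.49. The shares of all tested genes called lower were 12.2%, 9.36% and 21.5%, or 27%, 26.4% and 27.9% when scaled. Those called higher were 19.2%, 41.1% and 13.6%, or 23%, 24.5% and 23.7% when scaled. Nr2f2, counted among the receptors that rose, reached 1 TPM only in EpiLC libraries (at most 0.236 TPM in mESC), so the filter favoured its rise. Nr6a1, a receptor that represses Pou5f1 as cells differentiate, rose from 2.55 ± 0.881 to 13.7 ± 1.15 TPM in XX (SD, n = 3 each; log2 fold change 2.08), and by 3.09 in XY and 2.38 in Tet3-/-. Rarg, a retinoic acid receptor, rose by 2.56, 1.84 and 1.97. Of 7 T-box genes tested, 2 rose and 2 fell in XX, 1 and 1 in XY, and 4 and 2 in Tet3-/- (3 and 2, 0 and 1, and 4 and 2 when scaled). Tbx18 fell in each (-0.39, -1.32 and -0.88), and Tbx4 rose in each (0.77, 0.47 and 0.93), though not in XY when scaled (0.27). The filter favoured these directions. Tbx18 reached 1 TPM only in mESC libraries and was at no more than 0.0626 TPM in EpiLC. Tbx4 reached it only in EpiLC libraries and was at no more than 0.448 TPM in mESC. Tbx15 likewise reached it only in mESC libraries (at most 0.888 TPM in EpiLC), and Tbx20 only in EpiLC libraries (at most 0.873 TPM in mESC). The filter thus favoured the directions of Tbx15 and Tbx20 too, and both are among the T-box genes counted above. The mesoderm T-box factors T and Eomes rose in Tet3-/- (2.54 and 1.44, limma adjusted p 0.0256 and 0.0134), and the difference from XX did not pass (limma adjusted p 0.788 and 0.849). In Tet3-/- EpiLC T was at 1.03, 94.3 and 0.843 TPM and Eomes at 1.87, 17.4 and 2.26 TPM in mutants #1, #3 and #4, so these values rest on mutant #3. Tbx20 was lower in Tet3-/- than in XX EpiLC (-0.90, limma adjusted p 0.00873), where 0.955% of all tested genes were called lower. Its highest EpiLC library held 3.29 TPM in XX, 1.39 in Tet3-/- and 0.406 in XY. It was thus kept for testing largely through XX EpiLC, which favoured this direction. Among nuclear receptor coregulators, Ncoa2 rose in XY (1.24) and Ncoa3, a coactivator that binds ESRRB, fell in Tet3-/- (-1.11). Scaled, Ncoa3 fell in XX and XY too (-0.45 and -0.97).

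Otx2, the homeobox factor that opposes Gbx2, was lowest in XY mESC, where Gbx2 was highest. It was at 16.3, 18 and 22.2 TPM in XX mESC, at 21.9, 16.1, 20.5 and 23.8 in Tet3-/- mESC and at 1.77, 0.845 and 2.62 in XY mESC. In EpiLC it was at 10.4 to 11.5 TPM in XX, 12.6 to 22.2 in Tet3-/- and 52.2 to 69.2 in XY. Otx2 rose in the XY transition by 4.58 (limma adjusted p 1.07e-10) and fell by 0.71 in XX (limma adjusted p 0.0398), a difference of -5.29 (limma adjusted p 3.82e-08). Of the 12 formative genes, Otx2 among them, 9 rose in XX, 11 in XY and 9 in Tet3-/- (medians 1.37, 3.36 and 1.90). Of all tested genes 19.2%, 41.1% and 13.6% were called higher. Those of the 12 that fell numbered 2, 1 and 1, where 12.2%, 9.36% and 21.5% of all tested genes were called lower. Fgf5, Pou3f1, Sox3 and Lin28b reached 1 TPM only in EpiLC libraries, with at most 0.216, 0.0321, 0.271 and 0.637 TPM in mESC. The filter thus favoured the rise of Fgf5, Pou3f1, Sox3 and Lin28b. In EpiLC 11 of the 12 were lower in XX than in XY, where 42% of all tested genes were called lower. Between Tet3-/- and XX EpiLC 1 of the 12, Sox3, was higher in Tet3-/- (0.82, limma adjusted p 0.00452), where 0.12% of all tested genes were called higher. Scaled, 5 of the 12 were higher, against 2.2% of all tested genes. Calls without mutant #3 are not given for this list. Fgf5, called when scaled, was at 3.6, 43.7 and 3.58 TPM in mutants #1, #3 and #4 and at 2.21 to 2.78 in XX EpiLC. The size of its difference thus rests on mutant #3. Sox3 was less spread, at 2.86 ± 0.36 TPM in Tet3-/- and 1.19 ± 0.166 in XX EpiLC (SD, n = 3 each).

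The genes whose log2(TPM + 1) followed each member most closely over the 19 libraries were found among 10336 genes with a mean of at least 5 TPM in a group. Pearson's r is a description, since the libraries share state and genotype. For Esrrb these were Sox2 (0.991), Phf11d (0.987) and Ooep (0.986). For Tfcp2l1 they were Hsf2bp (0.991), Tcl1 (0.989) and Sox2 (0.988). For Tbx3 they were Nid1, a basement membrane protein (0.995), Jam2, a junction protein (0.993), and Pde8a, a phosphodiesterase (0.992). For Nr5a2 they were Rnf125 (0.995), Pde8a (0.993) and Gstp3 (0.992). For Nr0b1 they were Mylpf (0.984), the pseudogene H2-M6-ps (0.982) and Lrrc34 (0.981). Gbx2 was nearest to Btla (0.959), Nkx1-2 (0.936) and Slc30a2 (0.932). Btla and Nkx1-2 had 5.86 and 12.5 TPM in XY mESC and at most 0.912 TPM as the mean of any other group, a pattern like that of Gbx2.

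Among the 6 genes themselves, the 15 pairs had r from 0.31 to 0.99 over the libraries, with a median of 0.97, and every pair with r below 0.9 held Gbx2. After the group means were taken out, r ran from 0.20 (Tbx3 and Gbx2) to 0.92 (Tfcp2l1 and Nr5a2), with a median of 0.78. On scaled values the same r ran from -0.28 to 0.74, with a median of 0.43. Esrrb and Nr5a2 kept 0.74 when scaled and Esrrb and Nr0b1 0.68, while Tfcp2l1 and Tbx3 went from 0.65 to -0.08. The scaling factors, 0.596 to 1.74 over the libraries, are shared by all genes of a library, and their part in the unscaled values was not tested beyond this.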

How the data were processed

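The authors deposited 1 table of TPM (transcripts per 1000000) for 140948 transcripts in 19 libraries, with no counts, and each column sums to 1000000. The submitters' processing notes name FastQC 0.11.7, Trimmomatic 0.35, Salmon 1.1.0 and GRCm38, without their roles. The annotation release is not given in the sources used here. Per the labels' protocols, ribosomal RNA was removed from total RNA before stranded libraries were made, so non-coding RNA takes part of the TPM of every library. GENCODE M21 (GRCm38) gave the gene of each transcript for the sums: 139357 identifiers were found with version, 495 after the version was dropped, and 1096 (0.0454% to 0.215% of TPM per library) had no gene and were left out.

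On log2(TPM + 1) a single limma model (3.58.1, R 4.3.3) with a trended prior covered the 6 groups. Tested genes reached 1 TPM in 3 or more libraries, and 9 contrasts were taken, with Benjamini-Hochberg adjustment over the 14972 genes of each contrast and a threshold of 0.05. Fold changes on this scale understate those of low genes. Tables and plots were made in Python 3.11.15 with pandas 2.3.3, NumPy 2.4.6 and Matplotlib 3.10.9. On simulated data with 200 of 14972 genes changed by 2 log2 units, 93.5% were recovered in the XX transition, 94% in Tet3-/- against XX EpiLC and 74.5% in the difference of the XX and XY transitions. For 1 log2 unit these were 33%, 33.5% and 5%.

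The 6 genes and the lists were chosen with earlier results of these data known. The genes named are the 6 members, genes of the lists, the 3 genes most correlated with each member, up to 3 transcripts per member, and Tet3. A gene of the lists is not reported here. Also tried were median-of-ratios scaling over 18385 genes, another pseudocount (0.1), no filter, a filter at 5 TPM, TPM rescaled over nuclear protein-coding genes, only the groups compared, no trend, a replicate block and each library left out. Scaling together with leaving out Tet3-/- EpiLC mutant #3 was added after seeing the data.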

Additional observations from a re-analysis of the deposited data

Results flagged for a closer look

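The step from mESC to EpiLC differed between XX and XY by a direct test of the difference for 4 of the 5 genes other than Gbx2. On the log2(TPM + 1) scale the XX change minus the XY change was 2.58 for Esrrb, 2.21 for Tfcp2l1, 1.74 for Nr0b1 and 1.30 for Nr5a2 (limma adjusted p 0.0011, 0.00925, 0.00492 and 0.0354). Esrrb went from 97.8 to 12.6 TPM in XX and from 76.3 to 0.714 TPM in XY. Tbx3, the gene not called, passed with a pseudocount of 0.1 (2.22, limma adjusted p 0.0137). Sex and cell line cannot be told apart in any of these.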

How the results depend on the processing

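Of the changes of the 6 genes in the 9 comparisons under all alternatives, 855 values in all, 786 kept their direction and their side of the threshold, 30 passed it only under the alternative, 15 no longer passed and 24 changed sign. Counts here include Gbx2, which passed the filter through XY mESC alone. Scaling called 5 genes in Tet3-/- against XX EpiLC, 3 in XX against XY mESC and 2 in the difference of the Tet3-/- and XX transitions, and rescaling over nuclear protein-coding genes called 4, 1 and 2. Only the groups compared gave 0 in Tet3-/- against XX EpiLC, a TPM of at least 5 gave 0 in XX against XY mESC because Gbx2 was no longer tested, and scaling without mutant #3, added after seeing the data, gave 5 in Tet3-/- against XX EpiLC and 2 in the difference. With a pseudocount of 0.1 the counts were 6 in XX against XY EpiLC and 6 for the difference of XX and XY transitions, each 1 more. The cause of the other shifts was not tested. With a library left out the counts ran from 5 to 5 in the XX transition, 6 to 6 in XY, 5 to 5 in Tet3-/-, 0 to 0 for Tet3-/- against XX mESC, 0 to 2 in EpiLC, 1 to 2 for XX against XY mESC, 5 to 5 in EpiLC, 0 to 1 for the difference of Tet3-/- and XX transitions and 4 to 5 for that of XX and XY.

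Values that changed sign were not called. In Tet3-/- against XX mESC, Esrrb, Tfcp2l1 and Tbx3 were at -0.18, -0.18 and -0.26 scaled and at -0.09, -0.09 and -0.18 rescaled. Nr5a2 in XX against XY mESC was at 0.04 scaled and 0.05 rescaled. With a library left out, Tet3-/- against XX mESC ran from -0.07 to 0.22 (Esrrb), -0.24 to 0.42 (Tfcp2l1) and -0.13 to 0.20 (Tbx3), XX against XY mESC from -0.56 to 0.10 (Nr5a2) and -0.35 to 0.50 (Tfcp2l1), and the Gbx2 change in Tet3-/- from -0.24 to 0.11. Without the filter the Nr5a2 difference of the XX and XY transitions did not pass (1.30, limma adjusted p 0.0731).

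The labels do not say whether replicate numbers pair the libraries, and with so few libraries per group the values cannot decide it. Deviations of same-numbered mESC and EpiLC libraries correlated at -0.0488 to 0.319, and not each above 0.1 in any genotype. Some libraries matched best with their own number, such as Tet3-/- 3 (0.319), and others did not, such as Tet3-/- 1 (0.237). With the number as a replicate block, Tbx3 in Tet3-/- against XX mESC was at -0.03, Gbx2 in the Tet3-/- transition at 0.10, and Gbx2 in XX against XY EpiLC passed (0.41, limma adjusted p 0.0355), as it did with a pseudocount of 0.1 (1.68, limma adjusted p 0.0495), rescaled (1.06, limma adjusted p 0.0393) and in only the groups compared (0.41, limma adjusted p 0.00443). Gbx2 in the XX transition passed rescaled (0.95, limma adjusted p 0.0428) and in only the groups compared (0.39, limma adjusted p 0.0257). The block moved no count of calls by over 1.5 times.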
